A study of Caenorhabditis elegans with 12 samples.

Results

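Acceptor pairs 3 nt apart are places where an intron can end at either of a pair of neighbouring 3′ splice sites, so that the mRNA gains or loses exactly a codon without a shift of the reading frame. They were taken from the authors' catalogue of library introns as the alternative 3′ splice site events whose 2 forms differ in intron length by exactly 3 nt. The rule found 237 such events among 3483 alternative 3′ events and 5267 events in all. It used intron lengths only, but how events entered the authors' catalogue was not examined. The 237 events held 233 different acceptor pairs, because 4 pairs were listed with 2 donors each, and 231 events were listed in all 12 libraries.

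RNA splicing was measured by RNA-seq in whole L3 larvae of Caenorhabditis elegans, in 4 groups of 3 libraries. The groups were sacy-1(tn1385) of strain DG3430 (libraries az024 to az026), set against wild-type N2 numbered az021 to az023 (N2 az02), and mog-5(az192) of strain SZ454 (az044 to az046), set against N2 numbered az041 to az043 (N2 az04). Every group was kept on bacterial lawns at 20 °C and harvested 34 hours after embryos had been isolated by bleaching, and which N2 set goes with which mutant was read from the library numbers, as no label gives it. The labels gave the alleles by name only. They do not state that a group's libraries are separate cultures, so the p-values measure the spread among libraries alone, and that spread may be technical.

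In the second step of splicing the spliceosome joins the upstream exon to the base that follows an AG dinucleotide at the end of the intron. Where a further AG lies close by, helicases of the spliceosome take part in the choice between them, and tandem acceptors 3 nt apart are known from many animals. The sacy-1 gene encodes a DEAD-box helicase whose human homolog is DDX41, and mog-5 encodes the homolog of yeast PRP22, which acts at the second step and releases the spliced mRNA. The question in the series title is whether these helicases keep the spliceosome from the proximal acceptor, which lies on the side of the 5′ splice site and is called upstream here.

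The deposited value was a per mille score for each form of an event, and upstream use is given here as the percentage of the shorter-intron form. Differences are in percentage points. Every mutant library listed all 237 events, while the N2 libraries listed 232 to 236. Whether entry into the catalogue depended on the mutant libraries, and so bears on the direction of differences, was not tested. Read depth was unknown, so no counting interval could be given. Many values stood at exactly 1 per mille for the upstream form, which is 0.1% use, or at exactly 1 per mille for the downstream form, called the upper mark here. From 3 to 12 of the listed pairs per library stood at 0.1% in sacy-1 and 22 to 31 in N2 az02, against 4 to 12 in mog-5 and 14 to 18 in N2 az04. At the upper mark stood 39 to 43 in sacy-1 and 27 to 37 in N2 az02, against 16 to 21 in mog-5 and 11 to 25 in N2 az04. The part of these marks in the results was not tested. Marker genes and the levels of sacy-1 and mog-5 were not analysed here, since the values are shares of forms within an event. In whole larvae, a change of splicing within cells and a change in the mix of cells cannot be told apart. Acceptor positions are on build ce10 and name the first exonic base, 1-based. The files name events and not genes, so the catalogue's event numbers are used, and acceptor sequences were not used here.

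In wild-type larvae most pairs 3 nt apart were spliced at the upstream acceptor. The median upstream use over the 231 pairs listed in every library was 93.7% in N2 az04 and 93.9% in N2 az02. Pairs 6 nt apart had medians of 19.1% in N2 az04 and 10.8% in N2 az02 over 778 events, and pairs 9 nt apart had 13.1% and 8.03% over 559 events. The upstream acceptor was the major one in 171 of the 231 pairs in N2 az04 and in as many in N2 az02, or 74.0%, against 21.9% and 18.6% of the pairs 6 nt apart.

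**Figure D1:**
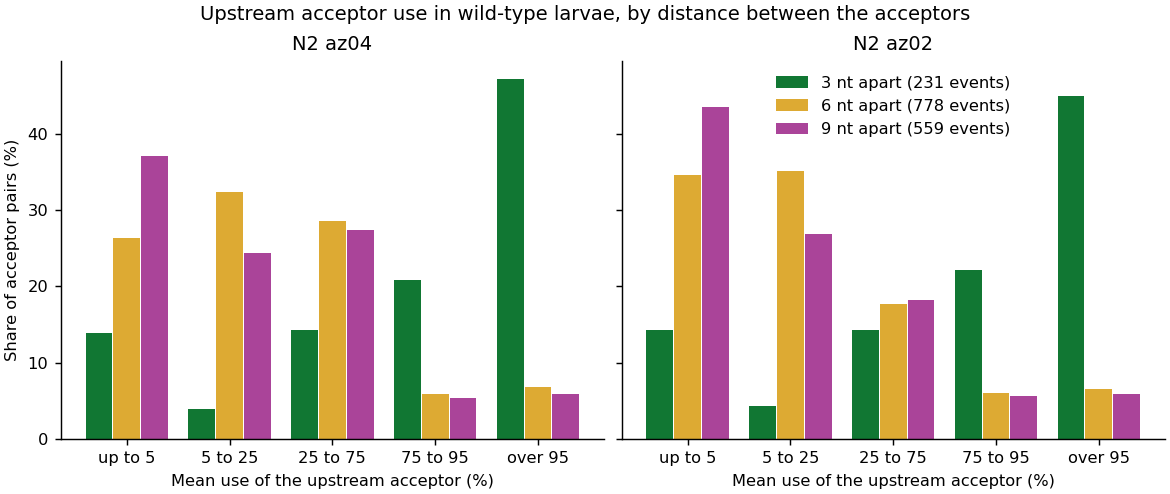
Share of acceptor pairs (vertical axis, percent of the class) by mean use of the upstream acceptor in the 3 libraries of N2 az04 (left) and N2 az02 (right), for pairs 3, 6 and 9 nt apart. Pairs 3 nt apart pile up over 95% use (109 and 104 of the 231), where 5.90% to 6.81% of the pairs 6 or 9 nt apart lie.

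The class piled up at the upper end. In N2 az04, 109 of the 231 pairs had over 95% upstream use and 48 had 75% to 95%, while 33 lay between 25% and 75%, 9 between 5% and 25%, and 32 at up to 5%. N2 az02 had 104, 51, 33, 10 and 33 in the same ranges. The SD between the 3 libraries of a group had a median of 1.196 points in sacy-1, 1.47 in N2 az02, 0.991 in mog-5 and 0.860 in N2 az04. Many of these pairs lay near full use, and this SD was not split by level of use. The mean SD was 3.47, 3.94, 2.77 and 2.57 points in the same groups.

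Averaged over the 231 pairs, upstream use was a little higher in both mutants than in their N2 sets. The libraries az024, az025 and az026 of sacy-1 stood at 74.5%, 74.6% and 74.2%, against 72.1%, 71.4% and 71.9% in az021, az022 and az023 of N2 az02. In mog-5, az044, az045 and az046 stood at 73.2%, 73.4% and 73.8%, against 72.4%, 72.7% and 72.7% in az041, az042 and az043 of N2 az04. Neither mutant overlapped its N2 set. The mean use was 74.4% ± 0.230 for sacy-1 and 71.8% ± 0.353 for N2 az02, and 73.4% ± 0.295 in mog-5 and 72.6% ± 0.191 in N2 az04 (SD, n = 3 libraries each). The differences of 2.63 and 0.826 points are given as a description, with no test, as is the 0.822 points by which N2 az04 exceeded N2 az02. The mog-5 difference was thus about as large as that between the wild-type sets. Pairs 6 nt apart averaged 31.7% ± 0.632 in sacy-1 and 24.8% ± 1.27 in N2 az02, and pairs 9 nt apart 35.7% ± 0.532 and 22.7% ± 0.723. In mog-5 and N2 az04 the means were 33.5% ± 2.74 and 29.3% ± 2.16 at 6 nt, and 32.3% ± 2.25 and 26.4% ± 1.59 at 9 nt. Over all 3345 alternative 3′ events listed in every library, sacy-1 averaged 38.8% and N2 az02 32.8%. There mog-5 averaged 38.2% and N2 az04 35.1%. In that larger class, too, neither mutant overlapped its N2 set.

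**Figure D2:**
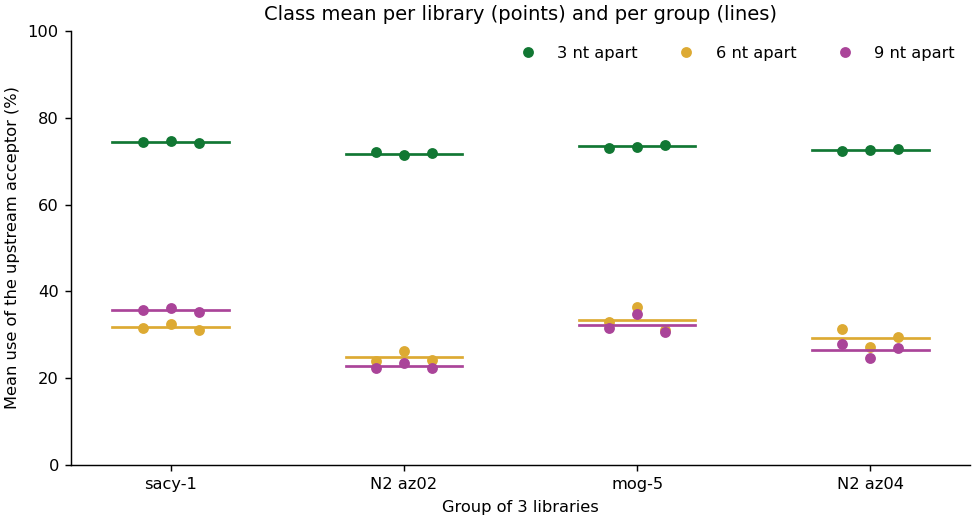
Mean upstream use (vertical axis, percent) of pairs 3, 6 and 9 nt apart in each library (points) and group (lines), with each mutant left of its N2 set. Pairs 3 nt apart sit between 71.4% and 74.6% in all 12 libraries, and the other classes lie lower and spread further between groups.

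In sacy-1 larvae, 2 of the 231 pairs tested rose and none fell, while 6.33% of all 5069 events tested in the catalogue changed and 6.17% rose. For the alternative 5′ events among all events, a rise or higher use here and below is that of the form scored as included, not of an acceptor. A change means an adjusted p under 0.05 in limma, with Benjamini-Hochberg adjustment over the whole catalogue, and a difference of at least 15 points. By the same rule 313 of 3370 alternative 3′ events changed, or 9.29%. Of these, 79 of 780 pairs 6 nt apart and 131 of 562 pairs 9 nt apart changed, all of both toward upstream. The bounded scale limits this count, because only 88 of the 231 pairs had 84.9% upstream use or less in N2 az02, from where a rise of 15 points can be reached. Among pairs with that room, 2.27% rose at 3 nt, 11.3% at 6 nt and 25.5% at 9 nt. Both calls were lost with a variance trend in limma, and the count was 10 with no minimum difference, beside 9.98% of all events.

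The largest called rise was in event A3.00016 on chromosome I, minus strand, with acceptors at 391809 and 391806 and an intron of 351 nt to the upstream one. Upstream use was 54.8%, 57.1% and 60.7% in the sacy-1 libraries, against 31.8%, 28.6% and 36.4% in N2 az02. The minor acceptor of N2 az02 was therefore the major one in each sacy-1 library. The difference was 25.3 points (SE 2.62, limma adjusted p = 0.00681). The N2 az04 libraries, at 51.9%, 41.9% and 26.3%, reached higher than N2 az02, and against them the difference was 17.6 points and the call was lost (adjusted p = 0.246, where 13 alternatives ranged from 0.00435 to 0.246). In mog-5 this pair stood at 37.9%, 43.6% and 50%, inside the range of N2 az04.

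The other called pair, A3.03313 on chromosome X, plus strand, has acceptors at 10781087 and 10781090 and introns of 50 and 53 nt. Upstream use was 67.4%, 64.4% and 72.3% in sacy-1, against 48.0%, 48.3% and 49.2% in N2 az02. An even use of both acceptors in N2 az02 gave way to a lead of the upstream one, by 19.5 points (SE 2.18, limma adjusted p = 0.00841). In mog-5 the pair stood at 45.8%, 48.7% and 56.2%, against 46.2%, 50.6% and 55.5% in N2 az04, without a gap between the groups. It also had the lowest p of all members for the difference between both mutant effects, 20.1 points (SE 4.55), which did not pass the adjustment (limma adjusted p = 0.0633).

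The same intron is listed as retained in the authors' other catalogue, where retention is scored against each spliced form separately. Against splicing at the downstream acceptor, retention was 69.6%, 68.6% and 72.1% in sacy-1 and 53.5%, 55.9% and 53.8% in N2 az02. Against splicing at the upstream acceptor it was 44.1%, 47.3% and 41.04% in sacy-1 and 47.5%, 49.4% and 46.8% in N2 az02. All sacy-1 libraries lay above N2 az02 against the downstream form, and the groups overlapped against the upstream form. The mog-5 and N2 az04 libraries overlapped against either form. Their means were 60.1% and 58.6% against the downstream form, and 53.1% and 50.6% against the upstream form. Both kinds of value use the same retained form, and they were not tested. The events A3.03311 and A3.03312 share the acceptors of this pair and set each against an acceptor at 10781136. Use of the acceptor at 10781087 against it was 87.5%, 87.3% and 92.0% in sacy-1 and 82.4%, 82.4% and 77.6% in N2 az02. The N2 az04 libraries, at 90.7%, 84.3% and 87.6%, overlapped sacy-1 and lay above all of N2 az02. Use of the acceptor at 10781090 against it was 77.2%, 79.2% and 81.5% in sacy-1 and 83.5%, 83.3% and 78.2% in N2 az02. N2 az04 stood at 91.9%, 84.0% and 84.9%, also above all of N2 az02. The intron of A3.00220 is listed as retained too. Against the downstream form its retention averaged 42.5% in sacy-1, 38.0% in N2 az02, 39.2% in mog-5 and 32.7% in N2 az04. Against the upstream form it averaged 58.4%, 64.8%, 55.0% and 62.1% in the same order. Mutant and N2 libraries overlapped except in sacy-1 against the downstream and mog-5 against the upstream form (not tested).

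A further 8 pairs passed the adjusted p in sacy-1 with differences under 15 points, and all 8 used the upstream acceptor more. They were chosen after their values were seen. The closest to the minimum was A3.01499 on chromosome III, minus strand, at 7275098 and 7275095, a pair that N2 larvae mostly splice downstream. Upstream use was 21.6%, 23.1% and 29.6% in sacy-1, against 7.89%, 12% and 9.76% in N2 az02 (14.9 points, SE 2.52, limma adjusted p = 0.0299). In mog-5 it was 23.2%, 20.4% and 17.6%, against 17.7%, 11.2% and 10.4% in N2 az04, where 2 of the 3 mog-5 libraries lay above all of N2 az04 and the adjusted p was 0.295.

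The other 7 were pairs in which N2 larvae already preferred the upstream acceptor. A3.02488 on chromosome V, plus strand, at 6746047 and 6746050 had the lowest adjusted p of all members in sacy-1 (limma, 0.00361). Its upstream use was 95.3%, 96.0% and 95.3% in sacy-1, against 89.8%, 89.7% and 90.4% in N2 az02 (5.55 points, SE 0.467). A3.00783 on chromosome II at 6857609 and 6857606 stood at 76.8%, 77.0% and 73.6% in sacy-1, against 61.8%, 67.2% and 61.5% in N2 az02. A3.00172 on chromosome I at 5328433 and 5328436 stood at 96.8%, 93.3% and 95.2% in sacy-1, against 86.7%, 80.4% and 84.3% in N2 az02. In each of these pairs every sacy-1 library lay above every N2 az02 library.

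A3.02238 on chromosome IV and A3.01255 on chromosome III rose by 10.4 and 9.66 points in sacy-1. A3.02785 on chromosome V and A3.03303 on chromosome X rose by 2.33 and 2.26 points. Upstream use of A3.02785 was at the upper mark in every sacy-1 library, against 97.2%, 97.5% and 98.0% in N2 az02. For A3.03303 it was 99.3%, 99.0% and 99.8% in sacy-1, against 97.0%, 97.1% and 97.1% in N2 az02. These are small differences between libraries that hardly varied.

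**Figure D3:**
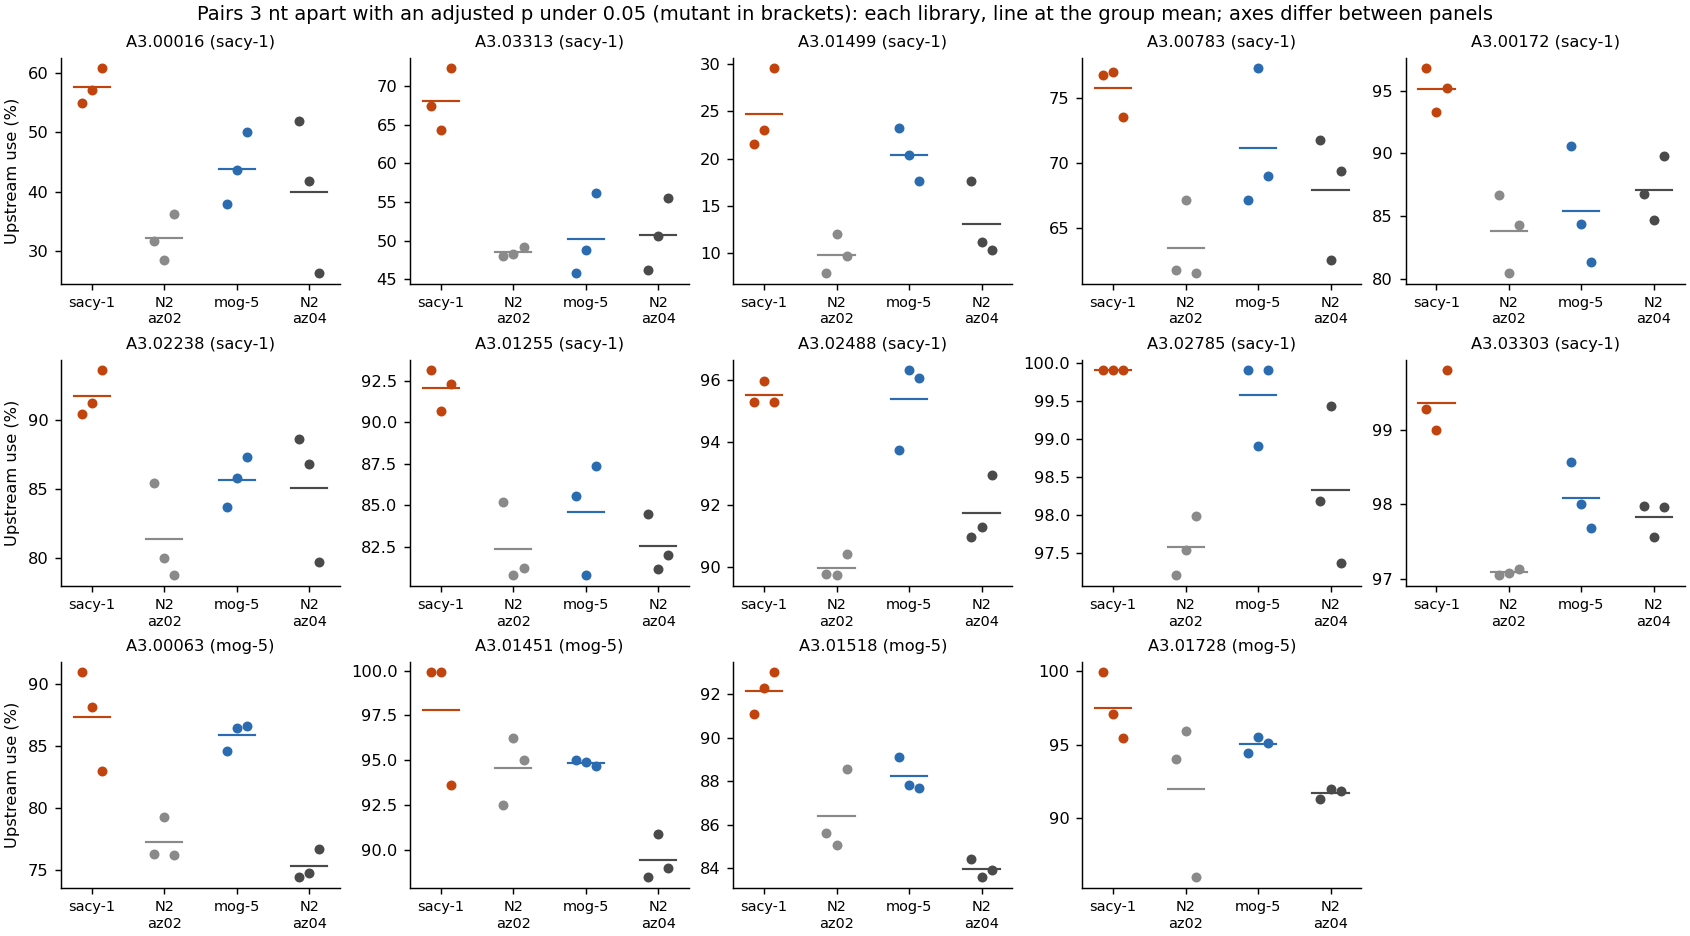
Upstream use (vertical axis, percent, with its own range in each panel) of the 14 pairs with an adjusted p under 0.05 in sacy-1 or mog-5, named in brackets. Points are libraries and lines are group means, with each mutant left of its N2 set; A3.00016 reaches 60.7% in sacy-1 and 36.4% in N2 az02 at most.

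Counted by unadjusted p, which includes the 10 pairs above, 27 pairs had higher use in sacy-1 and 3 lower use at a p under 0.05. That is 11.7% and 1.30% of the class, beside 19.5% and 2.27% of all events in the catalogue, which also holds alternative 5′ events without a choice of acceptor. Among the 3370 alternative 3′ events tested it was 27.5% and 1.54%. All 3 sacy-1 libraries lay above all 3 of N2 az02 in 48 pairs, or 20.8%, and below them in 9, or 3.90%, beside 25.4% and 3.67% of all events and 35.01% and 2.31% of alternative 3′ events. Upstream use was higher in 183 pairs, lower in 47 and equal in 1. The share with higher use, 79.2%, was near the 78.5% of alternative 3′ events, beside 69.4% of all events. The median difference over the 231 pairs was 0.937 points, beside 1.02 over all events, 1.94 over alternative 3′ events, 3.45 at 6 nt and 5.89 at 9 nt. The limma 95% interval of the difference lay within 15 points of 0 for 184 of the 231 pairs and within 5 points for 117.

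In mog-5 larvae no pair of 235 tested was called by limma, beside 1.3% of all 5172 events tested, and none was called on the arcsine square root scale. At an unadjusted p under 0.05 lay 21 pairs with higher upstream use and 4 with lower, or 8.94% and 1.70% of the class, beside 13.7% and 1.66% of all events and 18.7% and 0.932% of the 3433 alternative 3′ events tested. Of those events 66 were called, or 1.92%. Pairs 6 nt apart gave 23 calls of 788 and pairs 9 nt apart 28 of 570. Room for a rise of 15 points was there in 93 of the 235 pairs. The 3 mog-5 libraries lay above all of N2 az04 in 30 pairs, or 12.8%, and below in 9, or 3.83%, beside 18.7% and 2.82% of all events and 24.8% and 1.49% of alternative 3′ events. The median difference was 0.253 points, beside 0.503 over all events and 1.02 over alternative 3′ events, and the interval lay within 15 points of 0 for 198 pairs and within 5 points for 136.

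With no minimum difference, 4 pairs passed the adjusted p in mog-5, all upstream, beside 2.69% of all events, and they are named after their values were seen. A3.00063 on chromosome I, plus strand, at 2669633 and 2669636 stood at 84.5%, 86.4% and 86.6% in mog-5, against 74.4%, 74.8% and 76.7% in N2 az04. That is a difference of 10.6 points (SE 0.919, limma adjusted p = 0.0172). The same pair stood at 90.9%, 88.1% and 83.0% in sacy-1, against 76.3%, 79.2% and 76.1% in N2 az02 (10.1 points, SE 2.35, adjusted p = 0.0708). Neither mutant overlapped its N2 set.

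A3.01518 on chromosome III stood at 89.1%, 87.8% and 87.7% in mog-5, against 84.4%, 83.6% and 83.9% in N2 az04 (4.25 points, SE 0.531, limma adjusted p = 0.0379). A3.01451 on chromosome III stood at 95%, 94.9% and 94.7% in mog-5, against 88.5%, 90.9% and 89.0% in N2 az04 (5.40 points, SE 0.726, adjusted p = 0.0436). In N2 az02, however, A3.01451 stood at 92.5%, 96.2% and 95%, at the level of mog-5. A3.01728 on chromosome III stood at 94.4%, 95.5% and 95.1% in mog-5, against 91.3%, 92.0% and 91.9% in N2 az04 (3.29 points, SE 0.409, adjusted p = 0.0379). Its N2 az02 libraries, at 94%, 95.9% and 86%, spanned the level of mog-5.

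**Figure D4:**
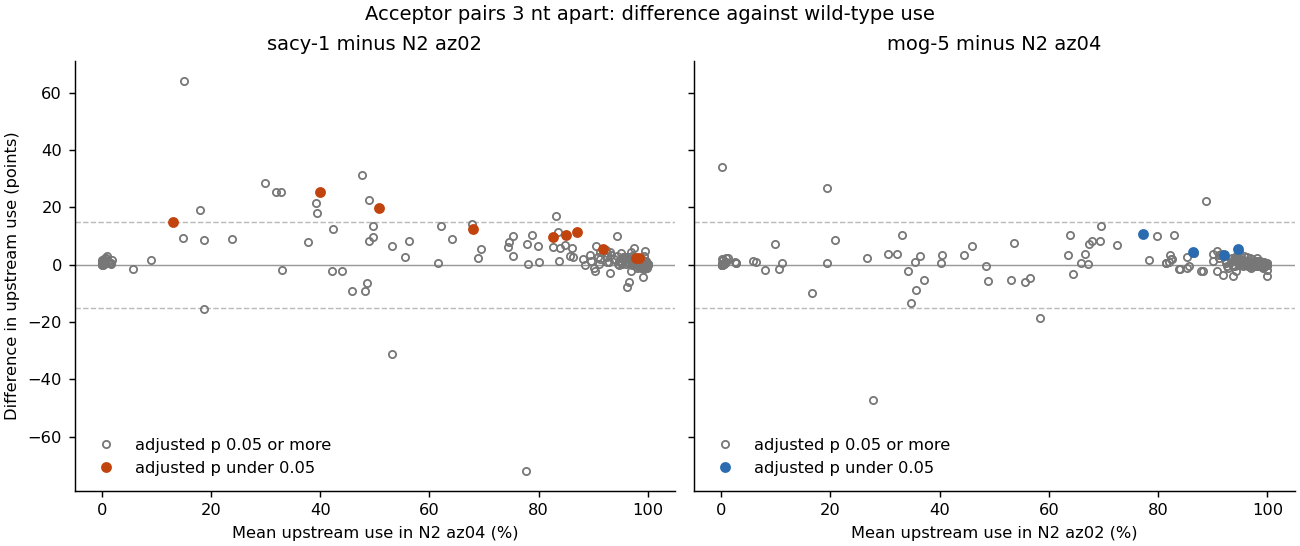
Difference in upstream use (vertical axis, points) for sacy-1 minus N2 az02 (left) and mog-5 minus N2 az04 (right) against mean upstream use in the N2 set that is not in the difference (horizontal axis, percent), 1 point per pair listed in all 12 libraries. Dashed lines mark the minimum difference of 15 points; filled points have an adjusted p under 0.05, 10 in sacy-1 and 4 in mog-5.

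The mutants were also set side by side, each against its own N2 set. Of the 27 pairs with higher use at an unadjusted p under 0.05 in sacy-1 and the 21 in mog-5, 7 were the same, which is 25.9% of the first list and 33.3% of the second. They were A3.00063, A3.00263, A3.01448, A3.01496, A3.01499, A3.01518 and A3.02488. The same overlap was not counted over all events or all alternative 3′ events, so it cannot be called particular to this class. In A3.00263 on chromosome I, chosen after its values were seen, the upstream acceptor was hardly used, with 1.69%, 3.03% and 2.19% in sacy-1 and 0.1% in each N2 az02 library, and 3.14%, 2.60% and 2.94% in mog-5 and 0.57%, 0.1% and 1.77% in N2 az04. Across the 231 pairs the differences of both mutants had a Pearson r of 0.159 and a Spearman rho of 0.236, as a description over pairs that share their libraries. No pair passed the adjusted p for the difference between both mutant effects by limma, with 22 at an unadjusted p under 0.05, or 9.52%, beside 12.6% of all 5019 events, of which 1.49% were called, and 15.8% of alternative 3′ events. On the arcsine square root scale the count was also 0. After A3.03313, the lowest p were those of A3.03303 on chromosome X, at 10592800 and 10592797, with 2.01 points (SE 0.491, limma adjusted p = 0.0831), and of A3.03235, with -94.2 points (SE 23.7, adjusted p = 0.0902).

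Because many pairs sat near full use, they were also grouped by use in the N2 set that was outside the comparison. Of the 33 pairs with 25% to 75% upstream use in N2 az04, 26 had higher use in sacy-1 than in N2 az02 and 7 had lower use. Their mean was 55.4% in sacy-1 and 46.5% in N2 az02, their median difference 8.30 points, and both called pairs were among them. The median difference of pairs 6 nt apart in that range was 7.58 points over 222 events, and that of pairs 9 nt apart was 19.6 points over 153. The share called was 6.06% at 3 nt, 15.8% at 6 nt and 42.5% at 9 nt. The median standard error was 6.44, 4.78 and 4.22 points in the same order, which is largest at 3 nt. All alternative 3′ events in that range, 675 in number, had a median difference of 8.98 points. Of them, 495 were higher, 175 lower and 21.2% called.

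In mog-5, the 33 pairs with 25% to 75% use in N2 az02 averaged 52.4% in mog-5 and 52.8% in N2 az04. Their median difference was 2.29 points and their mean difference -0.46 points, which differ in sign, with 21 pairs higher and 12 lower. The median difference in that range was 6.62 points at 6 nt and 7.99 points at 9 nt. All alternative 3′ events in that range, 519 in number, had a median of 4.12 points, with 368 higher and 145 lower. At 75% and over, where 157 pairs lay for sacy-1 and 155 for mog-5, the medians at 3 nt were 0.73 and 0.197 points. Under 25%, where 41 and 43 pairs lay, they were 0.623 and 0.18 points.

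**Figure D5:**
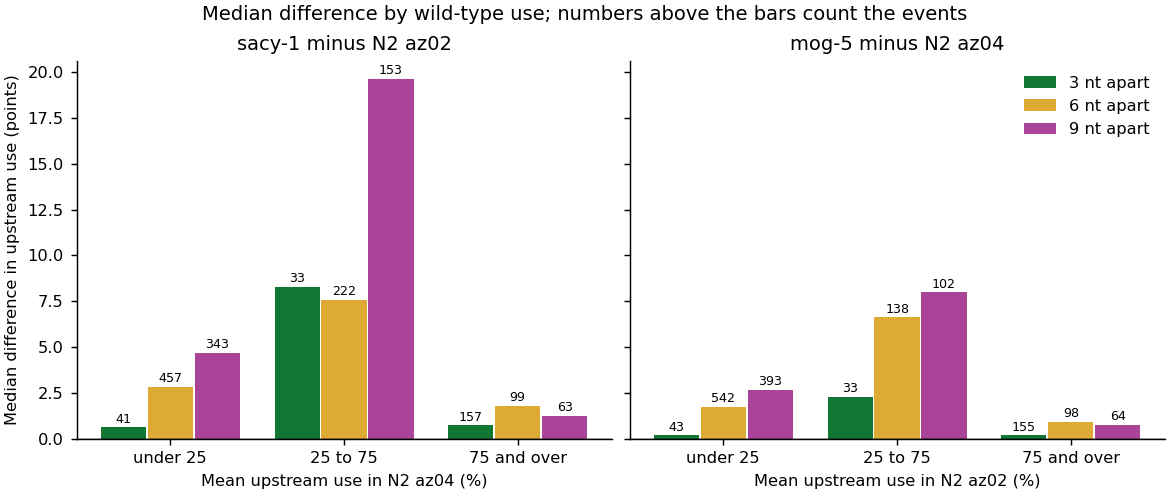
Median difference in upstream use (vertical axis, points) for sacy-1 minus N2 az02 (left) and mog-5 minus N2 az04 (right), by mean upstream use in the N2 set outside the comparison (horizontal axis, percent), for pairs 3, 6 and 9 nt apart. Pairs 3 nt apart stand at 8.30 points in the middle range of the left panel, next to 7.58 points at 6 nt and 19.6 points at 9 nt.

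Upstream use was lower in 47 of 231 pairs in sacy-1 and in 77 of 235 in mog-5, and none of those was called. Among alternative 3′ events upstream use was lower in 706 of 3370 in sacy-1 and 786 of 3433 in mog-5. In sacy-1 the 3 pairs 3 nt apart with the lowest p in that direction were A3.00157 on chromosome I, A3.03235 and A3.03160 on chromosome X. A3.00157, at 5137734 and 5137737, stood at 93.3%, 95% and 88.2% in sacy-1 and at the upper mark in every N2 az02 library (limma adjusted p = 0.0824). The N2 az04 libraries spread from 92.3% to the upper mark and so overlapped sacy-1. A3.00157 is part of a set of 3 acceptors with 5137743. The other pairs of the set differed in the other direction. A3.00156 (9 nt) had 16.1%, 17.4% and 15.8% upstream use in sacy-1 and 8.70%, 7.48% and 10.4% in N2 az02. A3.00155 (6 nt) had 1.35%, 1.10% and 2.44% in sacy-1 and 0.1% in each N2 az02 library.

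A3.03235, at 8571355 and 8571358, stood at 0.1%, 50% and 0.1% in sacy-1, against the upper mark, 66.7% and the upper mark in N2 az02 (difference -72.1 points, SE 18.3, limma adjusted p = 0.0896). It stood at the upper mark in every mog-5 library and at 50%, 83.3% and the upper mark in N2 az04. Its values jumped between extremes within some groups, and it passed the threshold without az025, at -88.7 points. The site holds a further, much preferred acceptor at 8571343. Use of that acceptor against 8571355 (A3.03239) was 98.8% to the upper mark in sacy-1 and 96.0% to 98.1% in N2 az02, and against 8571358 (A3.03236) 97.1% to 99.0% in sacy-1 and 98.5% to the upper mark in N2 az02. Both acceptors of the pair thus took only a small part of the splicing there. Other events at the site set the same acceptors 1, 2, 38 or 41 nt apart. Of these, A3.03231 and A3.03233 averaged 11.7% and 4.23% in sacy-1 and 2.84% and 14.1% in N2 az02, A3.03234 averaged 38.9% and 66.6%, and A3.03237 was not listed in az024. A3.03160, at 6665155 and 6665152, stood at 98.9%, 98.2% and 99.1% in sacy-1 and at the upper mark in each N2 az02 library.

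In mog-5 the 3 lowest p in the downstream direction were those of A3.03145, A3.02948 and A3.00352, each of which N2 larvae splice at both acceptors. A3.03145 on chromosome X, at 6323821 and 6323824, stood at 31.2%, 45.8% and 35.4% in mog-5, against 54.1%, 58.9% and 55.8% in N2 az04 (-18.8 points, SE 4.23, limma adjusted p = 0.134). The same pair ran from 0.1% to the upper mark within N2 az02. A3.02948 on chromosome V, at 20792269 and 20792266, stood at 42.3%, 41.2% and 44.9% in mog-5, against 46.9%, 49.8% and 49.1% in N2 az04 (adjusted p = 0.137). It was at 47.6%, 41.7% and 37.9% in sacy-1, against 49.2%, 43.97% and 53.7% in N2 az02, where the groups overlapped. A3.00352 on chromosome I, at 8290425 and 8290422, stood at 45.4%, 47.3% and 50.6% in mog-5, against 52.9%, 54.5% and 52.1% in N2 az04 (adjusted p = 0.210). In sacy-1 it lay on the other side, at 61.9%, 60.2% and 56.9%, against 56.2%, 47.1% and 55.7% in N2 az02.

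Both wild-type sets differed little in the median at 3 nt. No pair of 231 was called between N2 az04 and N2 az02 in limma, nor after the arcsine square root, beside 0.0392% of all 5098 events. With no minimum difference the count was also 0, beside 0.0785% of all events. At an unadjusted p under 0.05, 10 were higher in N2 az04 and 7 lower, or 4.33% and 3.03%, beside 10.7% and 2.59% of all events and 14.1% and 1.89% of alternative 3′ events. The N2 az04 libraries lay above all of N2 az02 in 17 pairs, or 7.36%, and below in 13, or 5.63%, beside 13.8% and 3.9% of all events and 17.9% and 2.95% of alternative 3′ events. The median difference was 0.04 points at 3 nt, and 0.383 over alternative 3′ events, 2.28 at 6 nt and 1.04 at 9 nt.

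The 3 pairs with the lowest p between both wild-type sets were A3.00834, A3.02330 and A3.00845. A3.00834 on chromosome II, at 7597968 and 7597965, stood at 87.2%, 85.8% and 85.4% in N2 az04, against 82.3%, 82.6% and 82.9% in N2 az02 (limma adjusted p = 0.222). The sacy-1 libraries had 88.0%, 90.7% and 86.6% there, and the mog-5 libraries 88.8%, 86.2% and 89.3%. A3.02330 on chromosome IV, at 15508319 and 15508322, stood at the upper mark, 98.4% and the upper mark in N2 az04, against 96.2%, 94.1% and 92.6% in N2 az02. A3.00845 on chromosome II, at 7816774 and 7816777, stood at 27.3%, 18.5% and 25.7% in N2 az04, against 6.56%, 11.1% and 13.9% in N2 az02. That gap of 13.3 points was wider than the sacy-1 differences of 7 of the 8 pairs that passed the adjusted p with under 15 points.

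Of the 34 pairs with mean use from 25% to 75% over all libraries, 3 were the steadiest. A3.00117 on chromosome I, at 4500648 and 4500651, ranged over 7.44 points. It stood at 40.7%, 45.1% and 41.3% in sacy-1, 42.9%, 45.8% and 44.96% in N2 az02, 48.2%, 46.2% and 47.3% in mog-5 and 44.3%, 43.2% and 44.4% in N2 az04. Every mog-5 library thus lay above N2 az04, with a limma 95% interval from 1.47 to 5.03 points (limma adjusted p = 0.114). The interval of sacy-1 minus N2 az02 ran from -6.16 to 1.82 points. A3.02528 on chromosome V, at 8385537 and 8385534, ranged over 8.65 points, from 29.8% to 38.5%. Its range was 5.47 points without az021 and 6.68 without az042, so that its order with A3.00117 turns on those libraries. The limma 95% interval of its sacy-1 minus N2 az02 difference ran from -5.94 to 2.25 points and that of mog-5 minus N2 az04 from -3.94 to 5.55. The third, A3.00783, is among the pairs with an adjusted p under 0.05 in sacy-1 described above.

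Some members were measured more than once, and those below were taken for their shared acceptors or donors. Of the 237 events, 52 shared an acceptor with another alternative 3′ event, 44 of them with one of the same donor. In 5 places on 1 donor, 3 acceptors followed each other at steps of 3 nt, which accounts for 10 events. At 7482998, 7482995 and 7482992 on chromosome III, minus strand, the middle site was the minor one both against the first (A3.01514) and against the last (A3.01512). Upstream use was 95.1%, 98.0% and 95.7% at the first step in sacy-1 and 95.7%, 96.8% and 98.6% in N2 az02, and 0.83%, 0.35% and 0.71% at the second step in sacy-1 and 0.86%, 0.57% and 0.40% in N2 az02. At 7512295, 7512298 and 7512301 on chromosome III, plus strand, both steps favoured the upstream acceptor. There the first step (A3.01518) stood at 91.1%, 92.3% and 93.0% in sacy-1, against 85.6%, 85.1% and 88.6% in N2 az02. The second step (A3.01516) stood at the upper mark, 90.9% and 94.1% in sacy-1, against 96.2%, 97.5% and 90.9% in N2 az02, with the groups overlapping.

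The other triplets varied more between libraries. On chromosome V, A3.02639 averaged 2.07% in sacy-1 and 0.870% in N2 az02, while A3.02641 ran from 37.5% to 66.7% in sacy-1 and from 0.1% to 50% in N2 az02. On chromosome II, A3.01155 ran from 0.1% to 40.0% in sacy-1 and from 0.1% to the upper mark in N2 az02, and A3.01141 from 33.3% to 50% in sacy-1 and from 0.1% to 33.3% in N2 az02. On chromosome III, A3.01743 and A3.01741 averaged 58.3% and 72.2% in sacy-1 and 35.7% and 64.4% in N2 az02, with groups that overlapped.

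The 4 acceptor pairs listed with 2 donors allow the same choice to be read from each donor. At 11117581 and 11117584 on chromosome V, where the donors are 9 nt apart, upstream use was 89.8% in sacy-1 and 87.8% in N2 az02 from the first donor (A3.02697), and 88.5% and 85.4% from the second (A3.02698). At 9457821 and 9457824 on chromosome V it was 98.4% and 96.9% with an intron of 963 nt (A3.02616), and 94.2% and 91.4% with one of 527 nt (A3.02617), again in sacy-1 and N2 az02. The called pair A3.00016 has a partner, A3.00015, which uses a donor 17 nt nearer. That partner stood at 66.7%, the upper mark and 70.0% in sacy-1, and at the upper mark in az021 and az022 and at 0.1% in az023 of N2 az02, with a limma 95% interval of the difference from -71.2 to 95.7 points. At 3689261 and 3689264 on chromosome I, A3.00099 stood at 20.0%, 35.3% and 26.7% in sacy-1 and 44.4%, 36.4% and 28.6% in N2 az02. There A3.00098 ran from 0.1% to 50% in sacy-1 and in N2 az02.

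Introns that end in a pair 3 nt apart had a median length of 125 nt to the upstream acceptor, with 35.9% under 60 nt. At 6 nt the median was 69 nt with 47.9% under 60 nt, and at 9 nt it was 63 nt with 49.2%. By intron length, median upstream use in N2 az04 was 95.2% over 82 pairs under 60 nt, 91.2% over 77 pairs of 60 nt to under 400 nt and 94.1% over 72 longer ones. In N2 az02 it was 94.1%, 93.6% and 94.4%, and medians this near full use leave little room for a trend. The median sacy-1 difference was 0.882, 0.98 and 0.712 points in the same order, and that of mog-5 was 0.13, 0.467 and 0.127 points. The events lay on all 6 chromosomes, from 29 on II to 47 on I, with 108 on the plus and 129 on the minus strand.

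A few members had large differences with large spread, and no firm statement can rest on them. Differences of at least 15 points upward were seen in 12 of 231 pairs in sacy-1 and downward in 3, and only the 2 above were called. Over all 5069 events the counts were 596 and 142, and over 3370 alternative 3′ events 517 and 74. Chosen after their values were seen, A3.01097 on chromosome II stood at 61.9%, 54.5% and 59.4% in sacy-1, against 30.0%, 25.8% and 43.8% in N2 az02, and missed the threshold (25.4 points, SE 5.36, limma adjusted p = 0.0558). A3.01938 on chromosome IV was higher in both mutants without passing, at 40.0%, 41.7% and 62.5% in sacy-1 against 0.1%, 25% and 33.3% in N2 az02, and at 57.1%, 56.2% and 56.2% in mog-5 against 35.7%, 8.33% and 45.5% in N2 az04. Its intron was retained against the downstream form at 97.57%, 95.2% and 97.9% in sacy-1 and 87.93%, 95.36% and 87.82% in N2 az02. In mog-5 retention was 96.83%, 96.75% and 97.01%, against 93.18%, 91.05% and 97.12% in N2 az04. The groups overlapped in both comparisons, and retention was not tested. A3.00785 on chromosome II had the largest upward difference, at the upper mark, 50% and 42.9% in sacy-1 and 0.1% in each N2 az02 library (64.2 points, SE 16.4, adjusted p = 0.0917).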

How the data were processed

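Per the file headers, the authors' files list splicing events on genome build ce10, 2 files per library. Bowtie2, STAR and SAMtools are listed in the submitters' processing notes, with no version. The deposited per mille score of the included and the excluded form of each event sums to 1000 in the library-intron catalogue. Upstream use is the included score as a percentage of both scores. An intron was the gap between the 2 exons of a form. Reads were paired and of 150 nt, per the labels' protocols, and no read totals were used.

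Events listed in all 6 libraries of a comparison entered a limma 3.58.1 fit (R 4.3.3) of upstream use on group alone, over alternative 3′ and 5′ events together, with Benjamini-Hochberg adjustment. An event was called at an adjusted p below 0.05 and at least 15 points. The interaction used 1 fit of all 12 libraries. The script was tested on simulated data. Retained introns of the Ensembl catalogue, whose deposited scores can sum to less than 1000, were used for 3 member introns, as included over the sum.

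The members and the tests were chosen with earlier results of these data known. Named were the called pairs, the 3 with the lowest p downstream in each mutant, for the interaction and between the N2 sets, and the 3 with the smallest range over all libraries at a mean use of 25% to 75%, with events that share their acceptors. Others are said to be chosen after their values were seen. Alternatives were the arcsine square root scale, a variance trend, other minimum differences, 1 fit of all libraries, other N2 references, subsets of events and each library left out.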

Additional observations from a re-analysis of the deposited data

How the results depend on the processing

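The count of pairs 3 nt apart called in sacy-1, 2 as reported, was 0 with a variance trend, 10 with no minimum difference, 6 with a minimum of 10 points, 4 in 1 fit of all 12 libraries and 5 against all 6 N2 libraries. With 1 library left out it ranged from 2 to 3. In mog-5 the count of 0 became 4 with no minimum difference and 1 with a minimum of 10 points, and with 1 library left out it ranged from 0 to 1 (A3.03221 without az044). For the difference between both mutant effects it ranged from 0 to 1 (A3.03092 without az022, A3.03235 without az025, A3.03313 without az046), and between the N2 sets it stayed at 0 in the alternatives run. No paired analysis was run because the labels give no pairing of libraries.

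Restricted to the 86 pairs of 5% to 95% mean use, the class mean differed by 6.03 points in sacy-1, 1.80 in mog-5 and 1.95 between the N2 sets. The variance trend lost both sacy-1 calls, A3.00016 at 25.3 points (adjusted p = 0.0517) and A3.03313 at 19.5 points (0.0592); over 13 alternatives the adjusted p of A3.00016 ran from 0.00435 to 0.246 and that of A3.03313 ran from 0.00151 to 0.0592. A3.03235, not called as reported, passed the threshold in sacy-1 in 1 fit of all 12 libraries (-72.1 points), against all 6 N2 libraries (-66.5) and without az025 (-88.7). For the difference between both mutant effects it passed without az025 (-111 points), and A3.03313 passed without az046 (23.1 points). The cause was not tested. No named pair changed direction in the alternatives run. Depth was unknown, and it cannot be told how much of the spread of the middle-range pairs is counting error.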
